A study of Mus musculus with 10 samples.

Results

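The 7 genes of intestinal identity and of position along the gut, Cdx1, Cdx2, Pdx1, Gata4, Gata5, Gata6 and Onecut2, were followed in sorted small intestinal cells. They are 7 of the 54532 genes in the count table and were picked by gene symbol as factors of known role, with earlier results of these data known. All 7 were found and all 7 passed the filter on low counts. The cells came from 5 litter-matched mice, 10 weeks old, of the CD1/ICR stock. All carried Gucy2c-GFP, a transgene in which the promoter of Gucy2c, the receptor guanylyl cyclase of the intestinal epithelium, drives green fluorescent protein. From each mouse, 20000 cells of high fluorescence (GUCY2Chi) and 20000 cells of medium fluorescence (GUCY2Cmed, the bulk epithelium) gave 1 library each, so each group had 5 libraries. They are numbered 2, 7, 12, 14 and 15 in both groups. The number was taken as that of the mouse, which no label states. Every value given by mouse, as a pair or with a mouse block rests on that reading. No treatment was given. The whole small intestine was dissociated at once, so a library mixes cells from duodenum to ileum, and a group is a gate on reporter brightness, not a purified cell type.

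CDX1 and CDX2 are caudal-type homeodomain proteins that hold epithelial cells to an intestinal fate. PDX1 belongs to the same ParaHox group and is best known from pancreas, where it is needed for organ formation and for beta cells, and from duodenum and gastric antrum. GATA4, GATA5 and GATA6 are zinc finger proteins that bind the letters GATA. GATA4 is present in the proximal small intestine and absent from distal ileum, where it keeps ileal genes such as those of bile acid uptake off, whereas GATA6 reaches into the ileum and colon. ONECUT2 is a cut-homeodomain protein, of the family of HNF6, that is made in duodenum and in endocrine and neural tissue.

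The promoters are shown because the promoters of Pdx1 and Gata5 each lie inside an antisense gene whose level is given below, and because Cdx2 and Pdx1 are close neighbours. The 250 bases before each gene's start in RefSeq's GRCm38.p6 annotation were read 5′ to 3′ on the gene's own strand, and the part that lies outside the gene as the count table bounds it is printed. The Pdx1 run lies at chr5:147269847-147269958 on the plus strand, the Cdx2 run at chr5:147307271-147307499 on the minus strand and the Gata5 run at chr2:180334700-180334929 on the minus strand. Capitals mark the homeodomain core TAAT on either strand.
Pdx1: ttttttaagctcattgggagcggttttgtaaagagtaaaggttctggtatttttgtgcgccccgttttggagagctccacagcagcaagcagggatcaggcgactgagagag
Cdx2: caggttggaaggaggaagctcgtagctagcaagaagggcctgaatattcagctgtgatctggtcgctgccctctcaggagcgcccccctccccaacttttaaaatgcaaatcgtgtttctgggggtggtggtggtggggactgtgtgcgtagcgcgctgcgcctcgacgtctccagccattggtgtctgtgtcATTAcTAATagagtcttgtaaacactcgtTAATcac
Gata5: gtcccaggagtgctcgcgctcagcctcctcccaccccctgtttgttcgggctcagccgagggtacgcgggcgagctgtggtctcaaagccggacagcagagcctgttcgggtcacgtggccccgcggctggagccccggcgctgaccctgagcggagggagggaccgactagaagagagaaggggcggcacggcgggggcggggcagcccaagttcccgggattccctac
The 250-base window of Cdx2 holds 3 copies of TAAT, all within the printed run, and the windows of Pdx1 and Gata5 hold none. Among 32851 RefSeq promoter windows of this length, 54.9% hold TAAT at least once. GATAA, the core of the GATA factor site, occurs in 22.6% of all windows and on neither strand of these 3. The core of the caudal-type site, ATAAA, occurs in 37.3% of all windows and likewise on neither strand of these 3. A match of these letters is a description of the sequence, not a binding site. Promoters were matched for 3 of the 7 genes.

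Libraries held between 10903958 and 15307932 counted reads. The labelled tissue was checked against 8 epithelial genes, which were present in every library, with a summed level from 8949 to 14401 cpm in GUCY2Chi and from 16110 to 20018 cpm in GUCY2Cmed cells, where cpm are read counts scaled to a common library total. The sum of 8 forebrain neuron genes was from 29.5 to 1221 cpm in GUCY2Chi, highest in mouse 15, and from 13.2 to 682 cpm in GUCY2Cmed cells. That of 7 immune genes was from 41.5 to 841 cpm and from 601 to 4530 cpm. The part of such RNA in the member values was not tested. Of 12 enteroendocrine genes, 11 were higher in GUCY2Chi cells, where their summed level was 5114 cpm in mouse 15, 22274 cpm in mouse 12 and from 48292 to 59247 cpm in the other 3 mice. The summed level of 16 enterocyte genes in GUCY2Chi cells was, as a share of that in the paired GUCY2Cmed library, 45.4% in mouse 12 and 43.1% in mouse 15, and between 5.64% and 6.34% in the other 3 mice. These 2 GUCY2Chi libraries therefore stand apart, and results are also given without them where that changes a call. Levels are cpm scaled by edgeR's TMM method. Groups were compared over all 15703 genes that passed the filter by edgeR's quasi-likelihood test, with a threshold of 0.01 on the Benjamini-Hochberg adjusted p. Exact permutation tests are two-sided on log2 values, and with 5 libraries a group they cannot give a p below 0.00794. Those of single members take the libraries as unpaired, and their p-values are not adjusted over the members. RNA of sorted cells does not tell fewer cells of a type from less RNA per cell.

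All 3 GATA factor genes were lower in GUCY2Chi than in GUCY2Cmed cells, and Cdx1, Cdx2, Pdx1 and Onecut2 did not pass the threshold. The 3 calls came from the fit without a mouse term, and 0 of the 3 passed with the mouse as a replicate block. By edgeR 0 members were higher, as also by limma-voom and DESeq2, and 1, Pdx1, lay higher at an unadjusted p under 0.05. Of all genes tested, 8.79% were lower by the same rule, 13.9% were higher and 22.7% were called in either direction. In cpm the groups did not overlap for the same 3 GATA genes, and of all genes tested 13.2% lay lower with no overlap, 16.7% higher, and 29.9% either way. The median log2 fold change of the 3 GATA genes was -0.85, that of the 2 Cdx genes was -0.22, and that of all genes tested was 0.09.

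**Figure D1:**
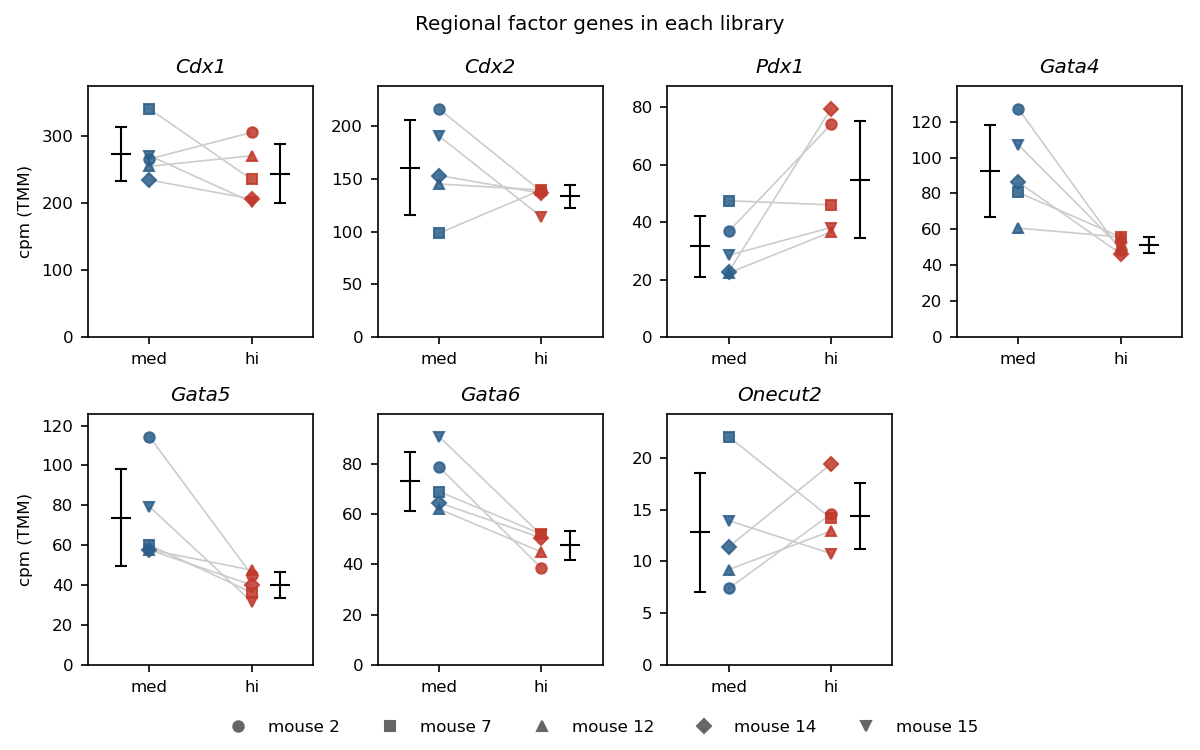
Level of each of the 7 genes in cpm (TMM) on the vertical axis, starting at 0, for GUCY2Cmed (blue) and GUCY2Chi (red) libraries; each symbol is 1 mouse, grey lines join the libraries of a mouse, and black bars give the mean and SD of 5 libraries. For Gata4, Gata5 and Gata6 every red point lies below every blue point, whereas the groups overlap for the other 4 genes.

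Gata4 (ENSMUSG00000021944) lies on chromosome 14 from 63198922 to 63271692, on the minus strand (GRCm38). In the GUCY2Chi libraries of mice 2, 7, 12, 14 and 15 it had 48.3, 55.8, 55.8, 46.4 and 49.8 cpm, and in the GUCY2Cmed libraries, in the same order, 127, 80.6, 60.7, 86.3 and 107 cpm. Every GUCY2Chi library was below every GUCY2Cmed library, and the GUCY2Chi values were tightly grouped while GUCY2Cmed values ranged widely. The means were 51.2 ± 4.34 cpm (SD, n = 5) and 92.4 ± 25.5 cpm (SD, n = 5; exact permutation test, p = 0.00794). The level in GUCY2Chi cells was 55.5% of that in GUCY2Cmed cells, or -0.85 as log2 fold change (standard error 0.19, edgeR adjusted p = 0.00541).

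Gata5 (ENSMUSG00000015627), on chromosome 2 from 180325133 to 180334699 on the minus strand, encodes a factor known from cardiac and gut endoderm. It had 45.2, 36.3, 47.5, 40.1 and 31.7 cpm in GUCY2Chi cells and 114, 60.1, 57.8, 57.7 and 79.4 cpm in GUCY2Cmed cells. The groups did not overlap, and the GUCY2Cmed library of mouse 2 was far above the rest. The means were 40.2 ± 6.45 and 73.9 ± 24.5 cpm (SD, n = 5 each; exact permutation test, p = 0.00794). The log2 fold change was -0.88 (standard error 0.22, edgeR adjusted p = 0.00865), or 54.4% of the GUCY2Cmed level.

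Gata6 (ENSMUSG00000005836), on chromosome 18, encodes the GATA factor with the broadest range along the adult intestine. Its values were 38.5, 52.0, 44.9, 50.5 and 51.6 cpm in GUCY2Chi cells and 78.6, 68.9, 61.9, 64.4 and 90.7 cpm in GUCY2Cmed cells. Here too every GUCY2Chi library was the lower, and the gap between the groups, from 52.0 to 61.9 cpm, was small. The means were 47.5 ± 5.77 and 72.9 ± 11.8 cpm (SD, n = 5 each; exact permutation test, p = 0.00794). The log2 fold change was -0.62 (standard error 0.15, edgeR adjusted p = 0.00890), or 65.2% of the GUCY2Cmed level.

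Within mice, each of the 3 GATA genes was lower in cpm in GUCY2Chi cells in 5 of 5 mice. The difference was closest to 0 for Gata4 and Gata5 in mouse 12, with log2 differences of -0.12 and -0.28, and farthest from 0 in mouse 2, with -1.40 and -1.34. Gata6 too differed most in mouse 2, by -1.03. The summed cpm of the 3 genes in GUCY2Chi cells was 41.2% of that in GUCY2Cmed cells in mouse 2 and 82.2% in mouse 12. Paneth and goblet cell RNA also differed most in mouse 2. The summed level of 7 Paneth cell genes in its GUCY2Chi library was 699.8% of that in its GUCY2Cmed library, against 51.7% to 268% in the other mice, and that of 7 goblet cell genes was 374%, against 50.6% to 165%. The part of these cells in the GATA values was not tested. By length-scaled level (FPKM), Gata4 made up between 47.8% and 56.1% of the sum in every library. The FPKM are not scaled by TMM, and by them the direction did not hold in every mouse. Gata4 in mouse 12 had 29.80 in GUCY2Chi against 29.74 in GUCY2Cmed cells, and Gata6 in mouse 7 had 19.12 against 18.96. By FPKM the groups overlapped for Gata4 and Gata6, and not for Gata5.

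The GATA calls lay close to the threshold. With the mouse as a replicate block, the adjusted p was 0.0236 for Gata4, 0.0195 for Gata5 and 0.0242 for Gata6 in edgeR, and 0.0179, 0.0143 and 0.0209 in limma-voom, so none of the 3 passed. With 1 library left out at a time, Gata4 passed in 3 of 10 fits (without the GUCY2Chi library of mouse 12 or the GUCY2Cmed library of mouse 7 or 12), Gata5 in 1 (without the GUCY2Cmed library of mouse 7) and Gata6 in 0, while the log2 fold changes stayed between -0.96 and -0.49. The weakest differences of all fits came from library size without TMM. As log2 fold change they were -0.57 for Gata4, -0.62 for Gata5 and -0.32 for Gata6 (edgeR adjusted p = 0.0512, 0.0458 and 0.148).

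Enterocyte RNA differed between the groups, and its values stand beside the GATA values here. Gata4 had 55.8 and 49.8 cpm in the GUCY2Chi libraries of mice 12 and 15, where the enterocyte genes were high, and between 46.4 and 55.8 cpm in the other 3. Gata5 had its highest GUCY2Chi value, 47.5 cpm, in mouse 12 and its lowest, 31.7 cpm, in mouse 15, on either side of the 36.3 to 45.2 cpm of the others. Gata6 had 44.9 and 51.6 cpm there, against 38.5 to 52.0 cpm in the others. Without these 2 libraries the log2 fold changes were -0.85, -0.84 and -0.60, close to those with all libraries, and the edgeR adjusted p was 0.0131, 0.0186 and 0.0203. Of the 16 enterocyte genes, 2 were lower by edgeR with all libraries, 5 with the mouse as a replicate block and 15 without these 2 libraries, and all 16 had a log2 fold change below 0. Their summed level was lower in GUCY2Chi cells in every mouse, and the part of enterocyte RNA in the GATA values was not tested.

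**Figure D2:**
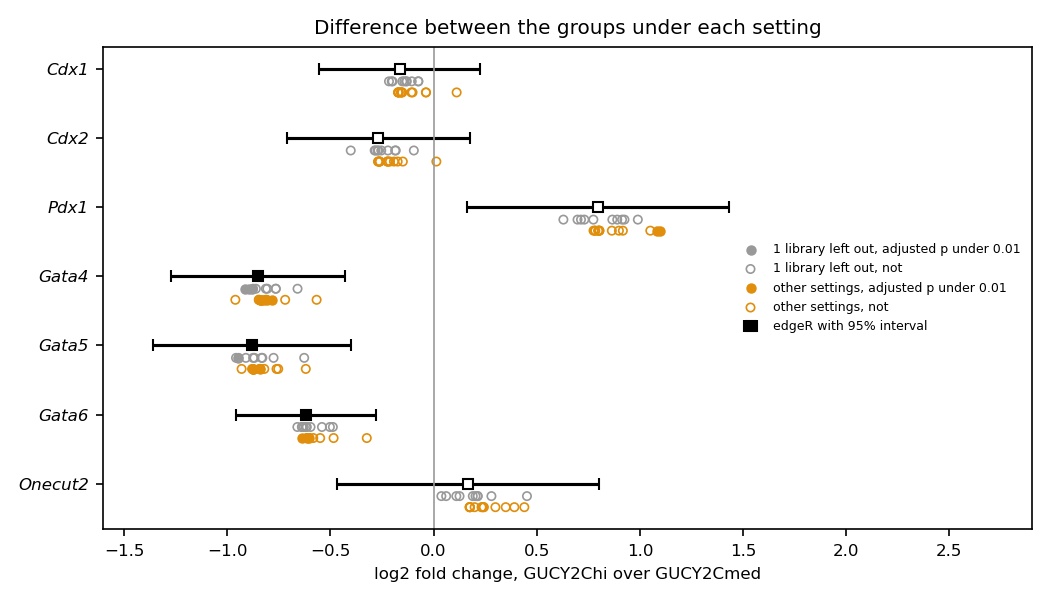
Log2 fold change of each gene, GUCY2Chi over GUCY2Cmed, on the horizontal axis: black squares with 95% intervals are the edgeR fit, grey circles leave out 1 library each, orange circles are the other settings, and filled symbols have an adjusted p under 0.01. The GATA genes lie below 0 in every setting, many of their circles are open, and Cdx1 and Cdx2 cross 0 in 1 setting, library size without TMM.

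The caudal genes were the most abundant of the 7 in both groups, and neither differed between the groups beyond the spread of the libraries. Cdx1 (ENSMUSG00000024619), on chromosome 18, had 305, 235, 271, 206 and 202 cpm in GUCY2Chi cells and 266, 341, 255, 234 and 271 cpm in GUCY2Cmed cells. The GUCY2Cmed library of mouse 7 was the highest of the 10, and the groups overlapped. The means were 244 ± 44.1 and 273 ± 40.2 cpm (SD, n = 5 each; exact permutation test, p = 0.286). The log2 fold change was -0.16 (95% interval -0.56 to 0.23, edgeR adjusted p = 0.515).

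Cdx2 (ENSMUSG00000029646), on chromosome 5 from 147300805 to 147307270 on the minus strand, encodes the caudal factor whose loss turns intestinal epithelium towards a gastric type. It had 138, 140, 140, 137 and 114 cpm in GUCY2Chi cells and 217, 98.7, 145, 153 and 191 cpm in GUCY2Cmed cells. Of the GUCY2Chi libraries, 4 lay within 136.7 to 139.8 cpm, while the GUCY2Cmed libraries spanned 2.19-fold, with mouse 7 the lowest and mouse 2 the highest. The means were 134 ± 10.9 and 161 ± 45.2 cpm (SD, n = 5 each; exact permutation test, p = 0.310). The log2 fold change was -0.27 (95% interval -0.71 to 0.18, edgeR adjusted p = 0.332), so a log2 difference as large as -0.71 lies within the interval. Scaled by library size without TMM, which moved the median of all genes by 0.29, the log2 fold changes of Cdx1 and Cdx2 were 0.11 and 0.01.

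Pdx1 was higher in GUCY2Chi cells in 4 of 5 mice without passing the threshold. Pdx1 (ENSMUSG00000029644) lies on chromosome 5 from 147269959 to 147275848 on the plus strand, with 24956 bases between its end and the end of Cdx2. It had 74.0, 46.0, 36.6, 79.4 and 38.1 cpm in GUCY2Chi cells and 36.8, 47.4, 22.3, 22.8 and 28.5 cpm in GUCY2Cmed cells. Mice 2 and 14 had the highest GUCY2Chi values, and mouse 7 alone had about equal levels in both groups. The means were 54.8 ± 20.4 and 31.6 ± 10.6 cpm (SD, n = 5 each; exact permutation test, p = 0.0556). The log2 fold change was 0.80, a 1.74-fold difference (standard error 0.29, 95% interval 0.16 to 1.43, edgeR adjusted p = 0.0475). Without the GUCY2Chi libraries of mice 12 and 15, which hold the 2 lowest Pdx1 values of that group, it was 1.09 (adjusted p = 0.00801), and with voomWithQualityWeights in limma it was 1.08 (adjusted p = 0.00394). Without all 4 libraries of mice 12 and 15 it was 0.90 (adjusted p = 0.0568) and with the mouse as a replicate block in edgeR 0.77 (adjusted p = 0.0605), and neither passed.

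Onecut2 (ENSMUSG00000045991), on chromosome 18, was the least abundant of the 7. It had 14.6, 14.2, 12.9, 19.4 and 10.8 cpm in GUCY2Chi cells and 7.40, 22.1, 9.22, 11.4 and 13.95 cpm in GUCY2Cmed cells. The groups overlapped and mouse 7 again gave the highest GUCY2Cmed value. The means were 14.4 ± 3.19 and 12.8 ± 5.73 cpm (SD, n = 5 each; exact permutation test, p = 0.452), and the log2 fold change was 0.17 (95% interval -0.47 to 0.80, edgeR adjusted p = 0.708). It was higher in GUCY2Chi cells in 3 of 5 mice.

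The relatives of the members were also counted. Of 10 family relatives and cofactors, 4 passed the filter on low counts and 6, Cdx4, Gsx1, Gsx2, Gata1, Gata3 and Onecut1, had at most 3 counts in every library. Onecut3, the remaining member of the ONECUT family, was higher in GUCY2Chi cells (edgeR adjusted p = 6.87e-05). It had 118, 188, 43, 109 and 25 counts in the GUCY2Chi libraries of mice 2, 7, 12, 14 and 15, and 1 count in the 5 GUCY2Cmed libraries together. Gata2 had 21, 8, 0, 8 and 2 counts in GUCY2Chi and 0 in every GUCY2Cmed library (edgeR adjusted p = 0.0242), and passed without the GUCY2Chi libraries of mice 12 and 15 (adjusted p = 0.00420). Those libraries hold its lowest GUCY2Chi counts, 0 and 2, so that pass adds no support for a difference. Onecut3 and Gata2 both passed the filter on low counts through GUCY2Chi libraries alone. Zfpm1, which encodes the GATA cofactor FOG1, had 26.0 ± 13.3 against 26.0 ± 7.63 cpm (SD, n = 5 each), and Zfpm2, encoding FOG2, had 1.28 ± 1.09 against 1.14 ± 0.946 cpm. Neither passed, with log2 fold changes of 0.00 and 0.17.

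Ratios of the members within a library do not depend on how libraries are scaled, and 5 such ratios of read counts were compared. The Pdx1 to Cdx2 ratio was 0.535, 0.329, 0.262, 0.581 and 0.333 in the GUCY2Chi libraries of mice 2, 7, 12, 14 and 15. In the GUCY2Cmed libraries it was 0.170, 0.480, 0.154, 0.148 and 0.149. Every GUCY2Chi ratio was above 4 of the GUCY2Cmed ratios, and the GUCY2Cmed library of mouse 7 was the exception. The difference was 1.001 on the log2 scale (exact permutation test, p = 0.0317; adjusted over the 5 ratios, p = 0.159). With mice as pairs the ratio was higher in 4 of 5 mice (exact sign-flip permutation test, p = 0.125). With 5 pairs that test cannot reach the p threshold set for the ratios, whatever the values. Its p therefore does not decide whether the ratio differed. Without the GUCY2Chi libraries of mice 12 and 15 the log2 difference was 1.27 (exact permutation test, p = 0.0714).

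The Cdx1 to Cdx2 ratio was between 1.51 and 2.21 in GUCY2Chi libraries. In GUCY2Cmed libraries it was between 1.23 and 1.75 except in mouse 7, where it was 3.45. The log2 difference between the groups was 0.05 (exact permutation test, p = 0.889). The GATA ratios differed by less than the spread between libraries: the log2 differences were -0.20 for Gata4 to Gata6 (exact permutation test, p = 0.222), -0.23 for Gata5 to Gata6 (p = 0.357) and 0.03 for Gata4 to Gata5 (p = 0.849). After adjustment over the 5 ratios these 4 gave p-values from 0.556 to 0.889.

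**Figure D3:**
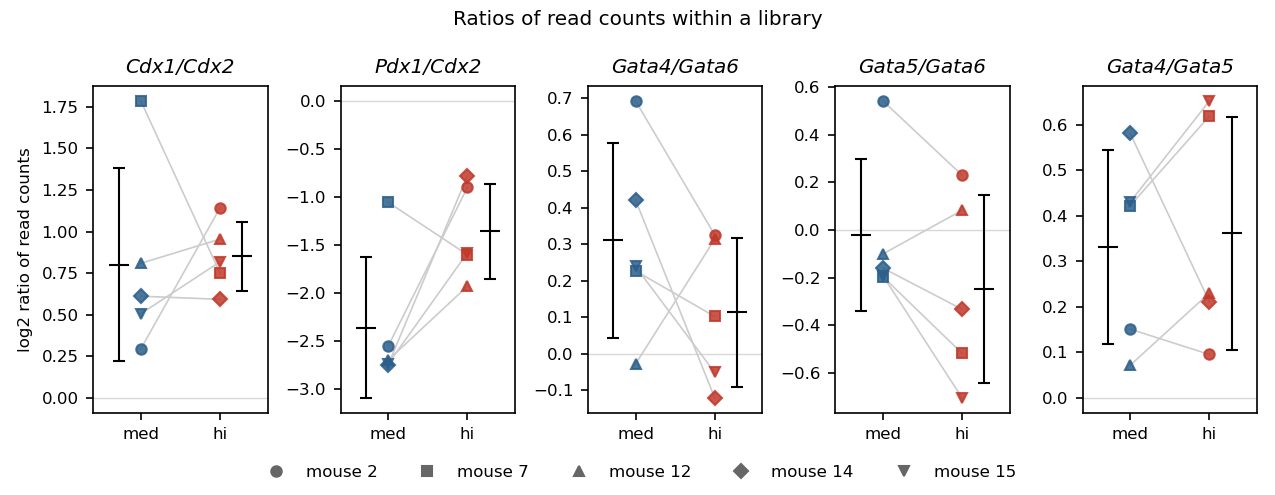
Log2 ratio of the read counts of 2 genes within a library, on a separate vertical scale for each pair, for GUCY2Cmed (blue) and GUCY2Chi (red) libraries; symbols are mice, grey lines join the libraries of a mouse and black bars give the mean and SD of 5 libraries. For Pdx1/Cdx2, 4 blue points lie below every red point and mouse 7 lies among the red ones; the groups overlap in every panel.

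The GUCY2Cmed library of mouse 7 thus gave the highest GUCY2Cmed values of Cdx1, Pdx1 and Onecut2 and the lowest of Cdx2. In that library the summed level of 16 enterocyte genes was 55453 cpm, the lowest of the group, that of 8 proliferation genes was 538 cpm, the highest, and that of 8 forebrain neuron genes was 13.2 cpm, against 245 to 682 cpm in the other GUCY2Cmed libraries. The part of these differences in the member values was not tested.

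Expression per length put Cdx1 and Cdx2 first and Onecut2 last in both groups, and the means of the 4 genes between them came in a different order in each group, each overlapping in range with the next. By the deposited FPKM, the mean levels in GUCY2Chi cells were 154 ± 28.9 for Cdx1, 65.2 ± 7.60 for Cdx2, 30.6 ± 4.80 for Gata4, 27.7 ± 9.25 for Pdx1, 15.4 ± 2.99 for Gata6, 13.4 ± 1.54 for Gata5 and 1.18 ± 0.217 for Onecut2 (SD, n = 5 each). Cdx1 lay above Cdx2 and Cdx2 above Gata4 in all 5 libraries with no overlap, and Onecut2 lay below all others. Gata4 was above Pdx1, and Gata6 above Gata5, in 3 of 5 libraries each, so these neighbours did not differ beyond their spread. In GUCY2Cmed cells the means were 142 ± 25.2 for Cdx1, 64.7 ± 19.3 for Cdx2, 45.4 ± 13.8 for Gata4, 20.6 ± 7.78 for Gata5, 19.3 ± 2.78 for Gata6, 13.4 ± 5.06 for Pdx1 and 0.867 ± 0.401 for Onecut2. Pdx1 stood below Gata6 there in 4 of 5 libraries, and above it in 5 of 5 GUCY2Chi libraries. Per kilobase of the gene length in the table, which for Gata4 and Gata6 is longer than the length behind the FPKM, Gata4 had 14.5 and Gata6 9.43 in GUCY2Chi cells, so Pdx1 stood above Gata4 in all 5 GUCY2Chi libraries. By that length the mean of Pdx1 in GUCY2Cmed cells, 13.4, was above that of Gata6, 11.8, with Pdx1 the higher in 2 of 5 libraries, so the order of these 2 genes by mean was the same in both groups. Among the FPKM of all genes tested, Cdx1 lay between the 92.6 and 96.4 percentile of its library in all 10 libraries, and Onecut2 between 18.3 and 38.4.

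Pdx1, Gata5 and Gata6 each overlap a gene on the opposite strand in the table. These 3 partners were chosen after their values were seen. How reads were assigned to strands in counting is not stated in the sources used here, so reads of a member and of its partner over shared bases cannot be told apart. Plut, on chromosome 5 from 147228596 to 147271521 on the minus strand, is an antisense RNA gene that shares 1563 bases with Pdx1 and spans the whole Pdx1 promoter run printed above. It had 10.9, 4.88, 18.8, 7.09 and 28.5 cpm in GUCY2Chi cells and 28.9, 59.2, 40.0, 27.4 and 43.2 cpm in GUCY2Cmed cells. Plut was lower in GUCY2Chi cells in 5 of 5 mice, opposite in direction to Pdx1, and the 2 libraries with much enterocyte RNA, mice 12 and 15, gave the highest GUCY2Chi values. Its log2 fold change was -1.50 (standard error 0.44, edgeR adjusted p = 0.0186), which did not pass the threshold. Without those 2 libraries it was -2.36 (adjusted p = 3.94e-04). Counts on Plut amounted to 26.0% of those on Pdx1 in GUCY2Chi and 128% in GUCY2Cmed cells.

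Gata5os, on chromosome 2 from 180332857 to 180340732 on the plus strand, shares 1843 bases with Gata5 and spans the whole Gata5 promoter run. It had 4.37, 2.35, 1.29, 7.94 and 2.46 cpm in GUCY2Chi cells and 0.562, 0.321, 0.360, 0.676 and 0.428 cpm in GUCY2Cmed cells. Every GUCY2Chi library was above every GUCY2Cmed library, where between 4 and 9 reads were counted. Gata5os was higher with a log2 fold change of 2.95 (standard error 0.53, edgeR adjusted p = 0.00157) while Gata5 was lower, and it passed in all 10 fits with 1 library left out and in both fits with the mouse as a replicate block. Its counts were 8.99% of those on Gata5 in GUCY2Chi and 0.649% in GUCY2Cmed cells. The partner of Gata6, 1010001N08Rik, shares 60 bases with it and differed by -0.82 on the log2 scale (edgeR adjusted p = 0.0214).

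**Figure D4:**
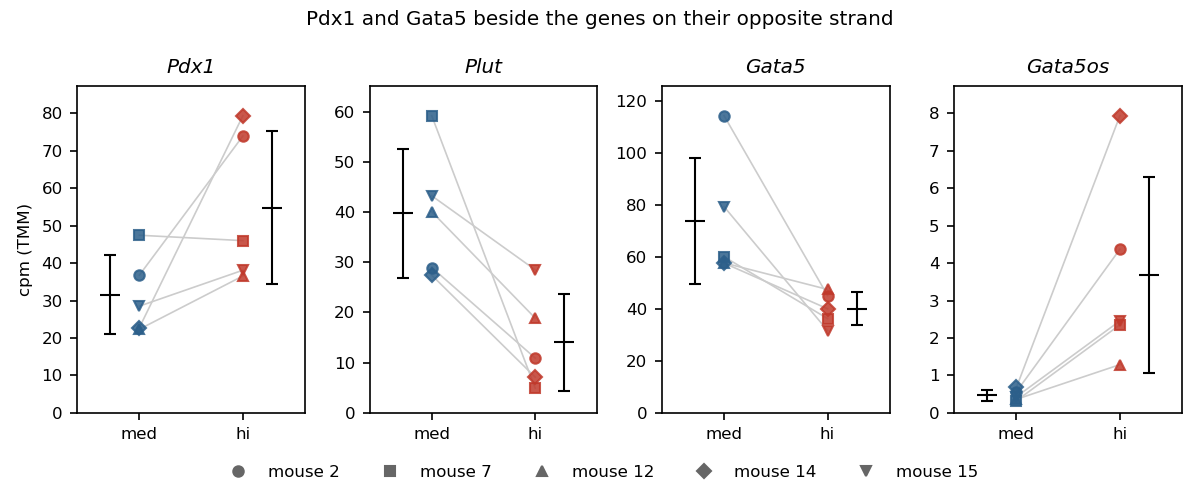
Level in cpm (TMM), from 0, of Pdx1 and Gata5 and of Plut and Gata5os, the genes on their opposite strand, in GUCY2Cmed (blue) and GUCY2Chi (red) libraries; symbols are mice, grey lines join the libraries of a mouse and black bars give the mean and SD of 5 libraries. Plut lies lower and Gata5os higher in GUCY2Chi cells in all 5 mice, each opposite to its partner's mean difference.

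Other transcription factors of the intestinal epithelium show where the members stand. Of 22 such genes, 3 were higher and 6 were lower in GUCY2Chi cells, and the median log2 fold change was -0.48. Without the GUCY2Chi libraries of mice 12 and 15, 3 were higher and 8 lower, and with the mouse as a replicate block 2 and 2. The 3 higher were the forkhead genes Foxa1 (82.8 against 6.86 cpm, log2 fold change 3.59), Foxa2 (31.2 against 3.28 cpm, 3.25) and Foxa3 (98.3 against 34.9 cpm, 1.49), which encode pioneer factors of endoderm. The 6 lower were Hnf4g, Isx, Nr5a2, Hes1, Klf5 and Ehf. Hnf4g, encoding a nuclear receptor of enterocyte genes, had 74.9 ± 51.7 against 334 ± 69.4 cpm (SD, n = 5 each; log2 fold change -2.16, edgeR adjusted p = 0.00325). Its paralogue Hnf4a, encoding the other HNF4 receptor, had 111 ± 18.8 against 135 ± 31.9 cpm and did not pass (log2 fold change -0.28, adjusted p = 0.292). Isx, an intestine-specific homeobox gene, had 44.5 against 162 cpm (log2 fold change -1.86). Klf5, a Krüppel-like factor gene of crypt cells, had 298 against 628 cpm (log2 fold change -1.07). Of all 970 transcription factor genes tested, by the family column of the table, 127 were higher and 53 lower.

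By the same family column, 11 genes with a GATA-type zinc finger were tested and 4 were lower: Gata4, Gata5, Gata6 and Mta3, a subunit gene of a chromatin remodelling complex (19.7 against 35.3 cpm, log2 fold change -0.84, edgeR adjusted p = 0.00569). By edgeR 0 of the 11 were higher, and 1 lay higher at an unadjusted p under 0.05. Among 61 homeobox genes tested, of 232 in the family of Cdx1, Cdx2 and Pdx1, 18 were higher and 1, Isx, was lower. Of all genes tested, 13.9% were higher and 8.79% lower. Some of the 18, such as Prrx2 and Dlx3 with 0 cpm in every GUCY2Cmed library, passed the filter through GUCY2Chi libraries alone. The split between higher and lower is therefore partly set by the filter. The higher ones included Isl1 (228 against 0.535 cpm), Lmx1a (146 against 0.507 cpm) and Nkx2-2 (39.3 against 0.404 cpm), which are known factors of endocrine cells. Of 6 CUT-domain genes tested, Onecut3 was the 1 that was higher.

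**Figure D5:**
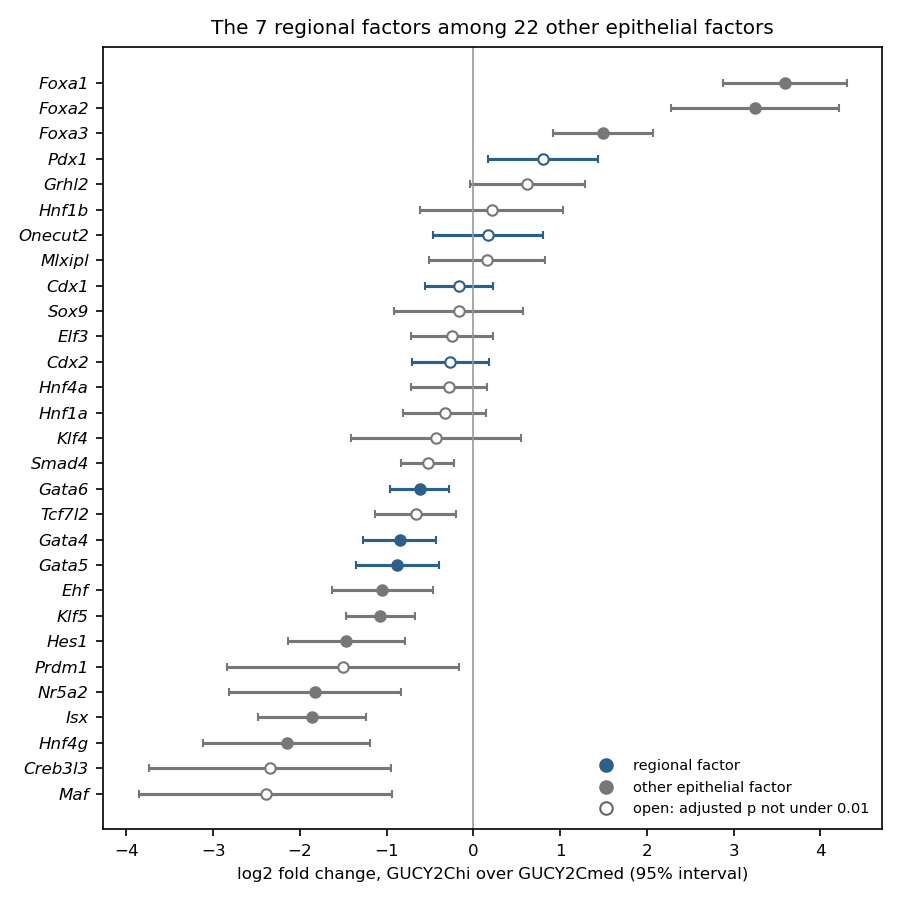
Log2 fold change, GUCY2Chi over GUCY2Cmed, with its 95% interval for the 7 regional factor genes (blue) and 22 other epithelial transcription factor genes (grey); filled points have an edgeR adjusted p under 0.01. Foxa1, Foxa2 and Foxa3 lie highest and Maf lowest; Gata4, Gata5 and Gata6 lie between -0.88 and -0.62, and Cdx1, Cdx2 and Onecut2 near 0.

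Hox genes mark position along the body axis. Of 39 Hox genes, 22 had at most 3 counts in every library and 15 of these had 0 throughout. The 10 that passed the filter all had a log2 fold change above 0, at mean levels of at most 1.01 cpm in GUCY2Chi cells. The summed level of the 39 genes was from 4.28 to 12.8 cpm in GUCY2Chi and from 0.685 to 3.53 cpm in GUCY2Cmed cells. At such levels a gene can pass the filter through its GUCY2Chi libraries alone, so the shared direction is partly set by the filter and is not support for a difference. Hoxa5, at 0.822 ± 0.509 against 0.0332 ± 0.0455 cpm (SD, n = 5 each), was the 1 called, with an edgeR adjusted p of 0.00211 and of 0.0173 with the mouse as a replicate block. Of the stomach and colon factors, Barx1 had at most 3 counts in every library, while Sox2 (0.261 against 0.466 cpm) did not pass.

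Genes of known position along the small intestine, proximal and distal alike, had log2 fold changes below 0. Of 8 proximal genes, 0 passed by edgeR, 6 lay lower at an unadjusted p under 0.05, 5 were lower by limma-voom, 6 by DESeq2 and 1 with the mouse as a replicate block in edgeR, and the median was -2.16. Without the GUCY2Chi libraries of mice 12 and 15, 7 of the 8 proximal and 7 of the 8 distal genes were lower by edgeR. Rbp2, the retinol binding protein gene of enterocytes, had 1055 ± 951 against 4524 ± 523 cpm (SD, n = 5 each), and Lct, the lactase gene, 82.9 ± 95.9 against 476 ± 164 cpm. Of 8 distal genes, 5 lay lower at an unadjusted p under 0.05, 3 were lower by limma-voom, 2 by DESeq2 and 3 with the mouse as a replicate block in edgeR, and 1 was lower by edgeR, Slc51b, which encodes a bile salt exporter subunit (12.9 against 57.3 cpm, log2 fold change -2.15), and the median was -2.03. Fabp6, the ileal bile acid binding protein gene, had between 0.540 and 204 cpm in GUCY2Chi libraries and between 33.1 and 702 cpm in GUCY2Cmed libraries, and the groups overlapped. In the GUCY2Chi libraries of mice 12 and 15 the proximal sum was 45.1% and 39.6% of that in the same mouse's GUCY2Cmed library, against 4.70% to 5.64% in the others. These lists hold enterocyte genes, and the part of the enterocyte share in them was not tested.

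Textbook targets of CDX factors were called in both directions. Of 10, 1 was higher, Gucy2c itself (1322 ± 526 against 404 ± 64.7 cpm, SD, n = 5 each, log2 fold change 1.71), by whose reporter the cells were sorted. With the mouse as a replicate block its edgeR adjusted p was 0.0115, and 0 of the 10 were then higher, against 2 at an unadjusted p under 0.05 without the block. The 4 lower were Isx, the villin gene Vil1 (330 against 1153 cpm, log2 fold change -1.81), the vitamin D receptor gene Vdr (82.5 against 280 cpm, -1.76) and the iron oxidase gene Heph (33.4 against 112 cpm, -1.74). Cdh17, the liver-intestine cadherin, had 1020 ± 230 against 1332 ± 230 cpm (SD, n = 5 each) and did not pass (log2 fold change -0.38), nor did Gpa33 (-0.40), Sis (-0.55), Lct (-2.52) or Muc2 (1.41). Without the GUCY2Chi libraries of mice 12 and 15, Lct also was lower (log2 fold change -5.15, edgeR adjusted p = 6.32e-06).

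Of 8 beta cell genes known to act downstream of PDX1, 4 passed the filter and 3 were higher in GUCY2Chi cells. Of all genes tested, 13.9% were higher. Among the 3, Iapp, the amylin gene, had 111 ± 51.4 against 0.445 ± 0.385 cpm, and Ucn3, the urocortin 3 gene, 309 ± 203 against 0.541 ± 0.301 cpm (SD, n = 5 each). A gene so near the filter's 0.5 cpm in GUCY2Cmed cells can be tested through its GUCY2Chi libraries alone. The count of 3 is therefore not support for a shared rise of these genes. Slc2a2, the gene of the glucose transporter GLUT2, which enterocytes also make, had 53.4 ± 68.6 against 219.8 ± 100.6 cpm (SD, n = 5 each; log2 fold change -2.04, edgeR adjusted p = 0.105), and was lower without the GUCY2Chi libraries of mice 12 and 15 (log2 fold change -5.17, adjusted p = 3.34e-05). Ins1, Ins2 and Nkx6-1 had at most 3 counts in every library, so the defining genes of islet beta cells were at or near 0. Iapp and Ucn3 passed in every fit run. Of 8 pancreatic acinar genes, 5 had at most 3 counts in every library and Cela1 was the 1 tested.

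The genes with the most similar profiles over the 10 libraries, by the root mean square difference of log2 cpm centred on each gene's mean among 9976 genes of at least 5 cpm, were named for each member. For Gata4 they were Ube3b, Cttn and Pxk (0.145 to 0.146), for Gata5 Narf, Ttc22 and Tcf7l2 (0.163 to 0.178), and for Gata6 Fgd4, Smad4 and Gosr2 (0.110 to 0.139). For Cdx1 they were Eif3j1, Thap12 and Tpd52l2 (0.0893 to 0.110), for Cdx2 Lrp10, Sphk2 and Dcun1d3 (0.135 to 0.148), for Pdx1 Ccdc181 and Hipk1 (0.189 each), and for Onecut2 Tmem209, Terf1 and Cox18 (0.163 to 0.181). Among the members themselves, Gata4 ranked 7 in likeness to Gata5, at 0.210, and Gata5 and Gata6 ranked 67 and 124 in likeness to Gata4. Cdx2 ranked 3176 in likeness to Cdx1. The points share library, depth and scaling, and the likeness is a description without a test.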

How the data were processed

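RNA of 10 libraries was measured, 5 of GUCY2Chi and 5 of GUCY2Cmed cells, grouped by the sample labels. The raw read counts per gene were deposited by the authors as whole numbers; the sequencing provider aligned paired-end reads with STAR and counted them, and the counter and its strand setting are not given in the sources used here. The FPKM, as deposited by the authors, divide counts by a gene length and by the reads of the library. The labels name mm9, but the table's positions overlap those of GRCm38 for 99.9% of 37624 matched symbols, against 9.66% of 28329 for NCBIM37 (mm9), so positions are given on GRCm38. The authors' own comparison, made with limma 3.40.6 and edgeR 3.26.8 per the submitters' notes, fills 2 tables of fold changes and p-values and 10 further per-library columns, and was not used.

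The filter required over 0.5 cpm in 3 or more libraries, which 15703 of 54532 genes passed. Groups were compared in R 4.3.3 with edgeR 4.0.16 (TMM, quasi-likelihood, no mouse term, adjusted p under 0.01). Alternatives used limma 3.58.1, DESeq2 1.42.0, a mouse block, other scaling and filters, and libraries left out. Ratios were log2 ratios of counts plus 0.5, tested by exact permutation at a p under 0.05; members were also tested so on log2(cpm + 0.5). The 95% intervals use the degrees of freedom of the edgeR fit. Python 3.11.15 (numpy 2.4.6, pandas 2.3.3, matplotlib 3.10.9, scipy 1.17.1) served for the rest. Scripts were tested on simulated data. The members and gene lists were chosen with earlier results of these data known. Genes named are the 7 members, up to 6 genes of a list, and the 3 genes nearest in profile to each member; other genes named were chosen after their values were seen. Some genes that the rule would name are not reported here.

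The numbers 2, 7, 12, 14 and 15 pair the libraries, since each of the 5 mice was sorted into both groups and the number was taken as that of the mouse. The correlation of the deviations of same-numbered libraries from their group means was -0.11, -0.22, 0.27, -0.12 and 0.06. Only GUCY2Chi library 12 had its highest correlation with the GUCY2Cmed library of the same number. Depth was between 10903958 and 15307932 counts, and counts of at most 3 in a library were taken as the floor, which covers counting error only.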

Additional observations from a re-analysis of the deposited data

Results flagged for a closer look

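In 30 groups of 5 libraries (the members, their antisense partners and the 5 ratios, each in both groups) 4 values stood far from the other 4 libraries by Dixon's test at the 95% level, which chance alone would flag in about 1 of 20 groups. Cdx2 in the GUCY2Chi library of mouse 15 was 114 cpm, below 136.7 to 139.8 cpm in the others. In the GUCY2Cmed library of mouse 7 the Cdx1 to Cdx2 ratio was 3.45, against 1.23 to 1.75 in the others, and the Pdx1 to Cdx2 ratio was 0.480, against 0.148 to 0.170. The Gata5 to Gata6 ratio in the GUCY2Cmed library of mouse 2 was 1.46, against 0.873 to 0.933.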

How the results depend on the processing

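The members called lower, 3 by edgeR, were 0 in both fits with a replicate block (edgeR, limma-voom), 0 with library size without TMM, 0 without a filter, 0 with at least 10 counts in every library, 0 without the GUCY2Chi libraries of mice 12 and 15, 0 without all libraries of mice 12 and 15 (an alternative chosen after seeing the data), 1 with upper-quartile factors, and from 0 to 2 with each library left out. The members called higher, 0, were 1 (Pdx1) with voomWithQualityWeights, without the GUCY2Chi libraries of mice 12 and 15 and at an adjusted p under 0.05, and 0 with each library left out. The log2 fold changes of Cdx1 and Cdx2 reversed to 0.112 and 0.0133 with library size without TMM, which moved the median of all genes by 0.29.

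Over all genes, 2186 were higher and 1381 lower, 61.3% of the calls higher. With the replicate block in edgeR there were 1294 and 779, at an adjusted p under 0.05 there were 3367 and 2767, and with each library left out from 1636 to 2534 and from 512 to 1609. Lower genes were 2235 with DESeq2, 2388 with voomWithQualityWeights, 2186 without the GUCY2Chi libraries of mice 12 and 15, and 557 with library size without TMM, where 83.9% of the calls were higher. The lower genes numbered 512, 584 and 692 without the GUCY2Chi library of mouse 2, 7 or 14 and 683, 744, 758 and 532 without the GUCY2Cmed library of mouse 2, 12, 14 or 15.

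The Pdx1 to Cdx2 difference of 1.001 was the same with the replicate block (exact sign-flip permutation test, p = 0.125). With so few pairs that test cannot reach the p threshold set for the ratios, so its p decides nothing. The difference was 1.27 (exact permutation test, p = 0.0714) without the GUCY2Chi libraries of mice 12 and 15. It ranged from 0.86 to 1.33 with each library left out (exact permutation test, p from 0.00794 to 0.0714). With each library left out the other ratios ranged from -0.0761 to 0.297 (Cdx1 to Cdx2), -0.28 to -0.10 (Gata4 to Gata6), -0.35 to -0.09 (Gata5 to Gata6) and -0.0423 to 0.0970 (Gata4 to Gata5), and Gata4 to Gata5 reversed to -0.0228 without the GUCY2Chi libraries of mice 12 and 15. Per kilobase of the table's gene length the level of Gata4 was 14.5 in GUCY2Chi and 21.5 in GUCY2Cmed cells and that of Gata6 9.43 and 11.8, below the deposited FPKM, which imply a shorter length. The cause of the other changes was not tested.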

Other observations

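Homeobox genes other than the regional factors were among those that were higher in GUCY2Chi cells, and those given here were chosen after their values were seen. Hopx, which encodes a small atypical homeodomain protein, had 655 cpm in GUCY2Chi and 173 cpm in GUCY2Cmed cells. Mnx1, a gene of motor neurons and of pancreas, had 21.4 against 2.99 cpm, and Meis3, a cofactor gene of Hox proteins, 19.9 against 2.69 cpm. Hhex, a gene of foregut endoderm and of islet delta cells, had 38.8 against 0.347 cpm, and Lhx1, a LIM homeobox gene, 8.64 against 0.173 cpm. The log2 fold changes of these 5 ranged from 1.92 for Hopx to 6.83 for Hhex.

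Of 6 stomach epithelium genes, Pgc, the gene of progastricsin, had 127 ± 28.8 cpm in GUCY2Chi and 0.940 ± 1.13 cpm in GUCY2Cmed cells (SD, n = 5 each; log2 fold change 7.06), while Gkn2, Tff1 and Muc5ac had at most 3 counts in every library. Of 9 genes of mesenchyme, muscle and endothelium, 3 were higher in GUCY2Chi cells (2 by limma-voom and 1 with the mouse as a replicate block in edgeR), with a summed level from 25.4 to 231 cpm against 0.803 to 3.08 cpm, and Col1a1, Col3a1, Acta2, Myh11 and Des had at most 3 counts in every library. Of 8 proliferation genes, 6 were lower in GUCY2Chi cells by edgeR with all libraries, 6 also without the GUCY2Chi libraries of mice 12 and 15, and 0 with the mouse as a replicate block. In the edgeR fit without the block, all 8 lay lower at an unadjusted p under 0.05.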
